A study of Homo sapiens with 12 samples.

Results

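The transcription factor NRF2, its inhibitor KEAP1, the adaptor p62 and their best known partners and targets were followed as 10 genes, chosen by symbol for their role: the regulators NFE2L2 (NRF2), KEAP1, MAFG, BACH1 and SQSTM1 (p62) and the targets NQO1, TXNRD1, SRXN1, TXN and PRDX1. The choice was made with earlier results of these data known. Counts among these genes set beside the shares of all genes are therefore descriptions and not tests. All 10 were among the 22730 genes listed in both count tables, and all 10 passed the filter on low counts in each line. RNA-seq counts came from 12 libraries, in 4 groups of 3, of established human liver cancer lines. The groups were cells labelled Hep-3B and transfected with siRNA that targets ARD1 (siARD1), cells labelled Hep-3B with control siRNA, Huh-7 cells with siARD1 and Huh-7 cells with control siRNA. ARD1 is now called NAA10, the enzyme subunit that acetylates the N termini of many new proteins. The sources used here do not give the number of siRNA sequences, the time after transfection or whether replicates were separate cultures, so each p-value measures only the spread between these libraries.

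KEAP1 holds NRF2 in the cytosol and, as the substrate adaptor of a CUL3 ubiquitin ligase, marks it for destruction. Electrophiles or oxidants that modify KEAP1 let NRF2 build up, enter the nucleus, pair with a small MAF protein such as MAFG and bind antioxidant response elements in DNA, where BACH1 competes as a repressor. p62, a receptor of selective autophagy, can bind KEAP1 in place of NRF2 and draw it into autophagosomes, and its gene is itself an NRF2 target. The targets include NQO1, which reduces quinones, and the thioredoxin chain of TXNRD1, TXN, PRDX1 and SRXN1, which reduces peroxides and restores overoxidised peroxiredoxin. Most control of NRF2 is exerted on the protein, which mRNA counts do not show. In liver cancer the pathway is often active, through changes in these genes or through accumulated p62.

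Total counts ran from 17327615 to 25960237 per library. The targeted gene NAA10 stood at 13.6 ± 2.47 CPM after siARD1 and 55.3 ± 5.94 CPM after control siRNA in the libraries labelled Hep-3B (SD, n = 3 each), which left 24.9% of its control level in the fit. In Huh-7 it stood at 11.01 ± 1.87 CPM after siARD1 and 174 ± 23.4 CPM after control siRNA (SD, n = 3 each), which left 6.34%. Here CPM are counts scaled to a common library size. AFP and ALB, secreted products that define such hepatoma cells, lay at 0.260 to 1.97 CPM and 0.564 to 6.20 CPM under the Hep-3B label. In Huh-7, AFP lay at 3182 to 5281 CPM and ALB at 10689 to 12771 CPM. AFP and ALB go against the label, and GPC3 lay within the AFP range there. Other markers were expressed under the Hep-3B label: KRT8 at 601.6 to 1096 CPM, KRT18 at 219.6 to 334.5 CPM and HNF4A at 42.6 to 48.6 CPM. In Huh-7 these lay at 955 to 2032, 304 to 687 and 337 to 368 CPM. The named markers thus do not all point the same way. AFP, ALB and GPC3 were scarce under the Hep-3B label, and HNF4A was expressed there but below its Huh-7 range. Of the 13 hepatocyte and hepatoma markers listed, 10 passed the filter on low counts under the Hep-3B label and 13 in Huh-7. The libraries are named by label only. The summed level of 13 hepatocyte and hepatoma markers was 1037 to 1205 CPM after siARD1 and 1740.4 to 1815 CPM after control siRNA under the Hep-3B label, and 30517 to 35312 and 37296 to 39185 CPM in Huh-7. The part of these shifts in the results was not tested. The 5 of 8 fibroblast markers listed under the Hep-3B label summed to 137 to 172 CPM after siARD1 and 162 to 174 CPM after control siRNA, and 6 in Huh-7 to 29.1 to 30.9 and 36.1 to 41.9 CPM. Endothelial markers (5 of 5 and 4 of 5 listed) summed to 63.4 to 76.2 and 53.3 to 65.9 CPM under the Hep-3B label, and to 10.8 to 13.2 and 13.1 to 14.4 CPM in Huh-7. Over the 12 libraries, 3 of 4 leukocyte markers summed to 1.66 to 12.2 CPM and 3 of 5 keratinocyte markers to 7.84 to 30.2 CPM.

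The first question was what happened to the pathway in Huh-7 when ARD1 was lowered. Of the 10 genes, 8 rose after siARD1 and 0 fell, with a median log2 fold change of 0.62, while -0.0076 was the median of all 15919 genes tested. Of all those genes 40.1% passed the same threshold (adjusted p under 0.05), 21.2% higher and 18.9% lower. Among the genes called, 52.9% were higher, or 39.7% with upper-quartile in place of TMM scaling. In bulk RNA, fewer cells of a type and less RNA per cell cannot be told apart. At an unadjusted p under 0.05 all 10 were higher and 0 lower, and DESeq2 and limma-voom also called 8 higher and 0 lower. In these 8 genes each of the 3 siARD1 libraries lay above each of the 3 controls, and 50.0% of all genes tested had groups that did not overlap.

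**Figure D1:**
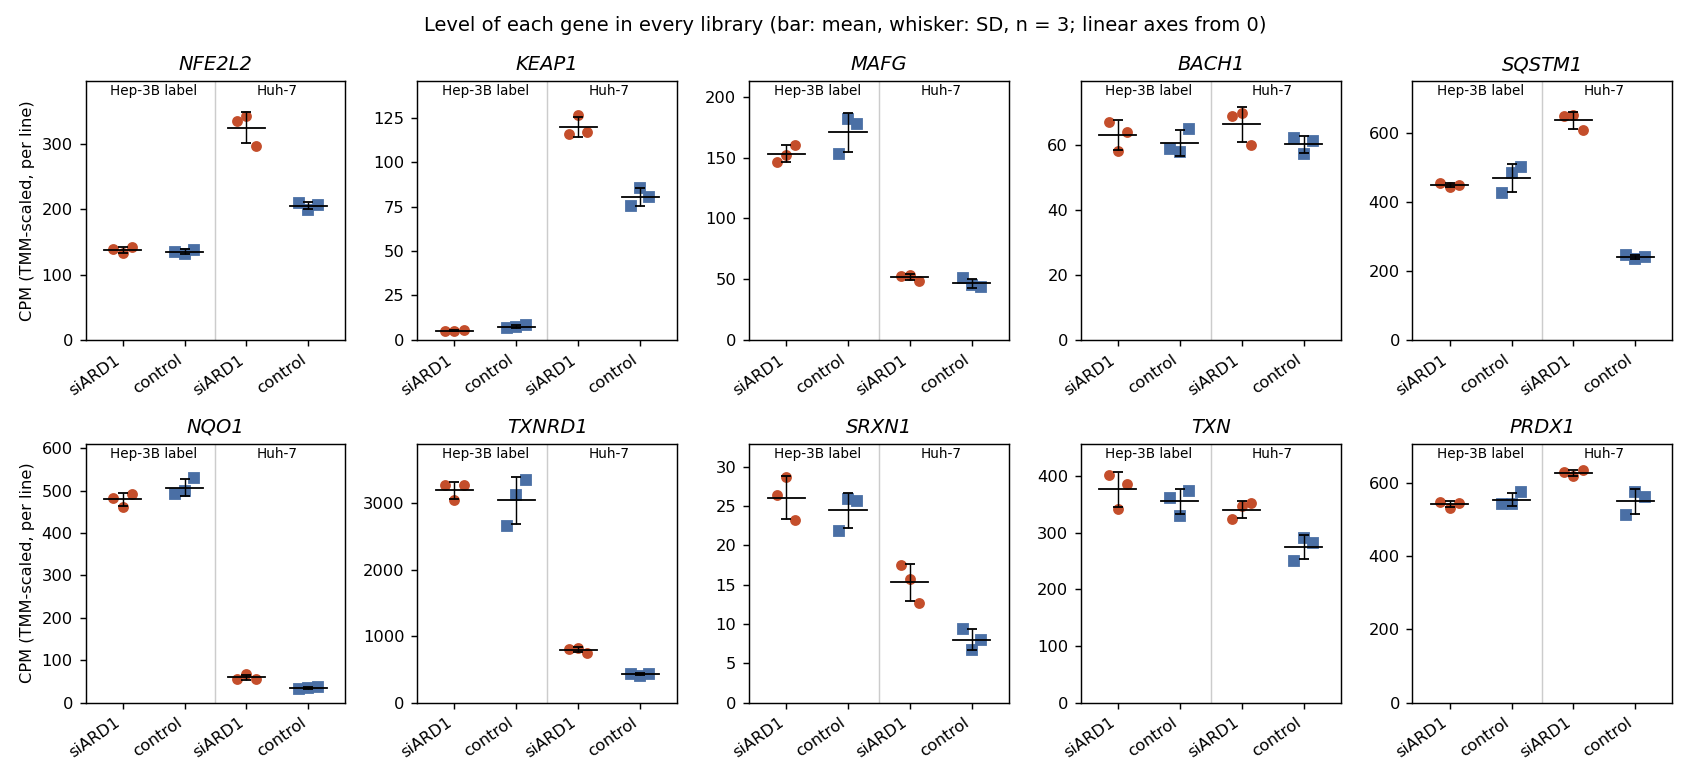
Level of the 10 genes in each of the 12 libraries, in TMM-scaled CPM on linear axes, with siARD1 libraries as circles, control libraries as squares, the mean as a bar and the SD as a whisker (n = 3). In Huh-7 the SQSTM1 points after siARD1 (607 to 651 CPM) stand well above the controls (234 to 246 CPM), while KEAP1 under the Hep-3B label lies between 4.89 and 8.44 CPM.

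SQSTM1 (ENSG00000161011, chromosome 5, 179806398 to 179838078), the gene of p62, showed the largest rise of the 10 in Huh-7 (positions are on GRCh38, from GENCODE). Its level was 649, 651 and 607 CPM after siARD1, against 246, 234 and 239 CPM after control siRNA. The groups lay far apart, with a log2 change of 1.41 with SE 0.0534 (edgeR adjusted p = 2.19e-14), or 2.65 times the control level. SQSTM1 shares 1582 exonic bases with MRNIP and 105 with MGAT4B, both on the opposite strand. How the counting treated strand is not stated in the sources used here. MRNIP held 5057 counts over the 6 Huh-7 libraries where SQSTM1 held 51704, and MGAT4B held 30919.

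NFE2L2 (ENSG00000116044, chromosome 2, 177227595 to 177392697), which encodes NRF2 itself, also rose. It had 335, 343 and 298 CPM after siARD1, against 209, 199 and 207 CPM after control siRNA. All 3 siARD1 libraries exceeded all controls, with a log2 change of 0.66 with SE 0.0570 (edgeR adjusted p = 9.01e-09). NFE2L2 shares 1054 of its 5979 exonic bases with AC019080.1 on the same strand, which held 1276 counts over the 6 libraries. KEAP1 (ENSG00000079999, chromosome 19, 10486120 to 10503741), its inhibitor, rose beside it. It had 116, 126 and 117 CPM after siARD1, against 75.5, 85.4 and 80.4 CPM after control siRNA, again without overlap and with a log2 change of 0.57 with SE 0.0587 (edgeR adjusted p = 1.09e-07). The ratio of KEAP1 to NFE2L2, each taken per kilobase of exon, was 0.588 ± 0.0382 after siARD1 and 0.624 ± 0.0549 after control siRNA (SD, n = 3 each; exact two-sided permutation p = 0.5). This ratio differed by less than the spread between libraries.

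The gene of a DNA partner of NRF2 and that of its competitor did not pass in Huh-7. MAFG (ENSG00000197063, chromosome 17, 81918270 to 81927714), a small MAF protein gene, had 52.5, 53.5 and 48.6 CPM after siARD1, against 51.0, 44.8 and 43.6 CPM after control siRNA. The control with the highest value lay within the siARD1 range, and the gene did not pass (0.15, 95% interval 0.0027 to 0.30, edgeR adjusted p = 0.0981). BACH1 (ENSG00000156273, chromosome 21, 29194071 to 29630751), the competing repressor, had 68.9, 69.9 and 60.1 CPM after siARD1, against 62.2, 57.2 and 61.4 CPM after control siRNA. These groups overlapped too, with 0.14 (95% interval 0.0002 to 0.28, edgeR adjusted p = 0.104). MAFG passed without control 1 (0.22, edgeR adjusted p = 0.0242) or siARD1 library 3 (0.19, 0.0427), and BACH1 without siARD1 library 3 (0.21, 0.0131).

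The 5 target genes all rose in Huh-7. SRXN1 (ENSG00000271303, chromosome 20, 646615 to 653370), the sulfiredoxin that repairs overoxidised peroxiredoxins, had 17.5, 15.7 and 12.7 CPM after siARD1, against 9.36, 6.68 and 7.98 CPM after control siRNA. It was the least abundant target, its libraries scattered most, and the change was 0.94 (SE 0.14, edgeR adjusted p = 1.10e-05). SRXN1 shares 2292 of its 2698 exonic bases with AL121758.1 on the same strand, which held 26 counts over the 6 Huh-7 libraries, and how reads in shared bases were assigned is not stated in the sources used here. TXNRD1 (ENSG00000198431, chromosome 12, 104215779 to 104350305), the cytosolic thioredoxin reductase, had 805, 822 and 751 CPM after siARD1, against 433, 404 and 436 CPM after control siRNA. Its groups were narrow and far apart, with a log2 change of 0.90 with SE 0.0554 (edgeR adjusted p = 5.18e-11). NQO1 (ENSG00000181019, chromosome 16, 69706996 to 69726951) had 56.2, 66.1 and 55.5 CPM after siARD1, against 31.6, 33.9 and 36.1 CPM after control siRNA. It rose to 1.75 times control, a log2 change of 0.80 with SE 0.0770 (edgeR adjusted p = 4.32e-08).

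The genes of 2 abundant thiol proteins had the smallest changes among the targets. TXN (ENSG00000136810, chromosome 9, 110243811 to 110256640), thioredoxin itself, had 324, 347 and 352 CPM after siARD1, against 251, 291 and 282 CPM after control siRNA, a log2 change of 0.31 with SE 0.0585 (edgeR adjusted p = 0.000206). PRDX1 (ENSG00000117450, chromosome 1, 45511036 to 45523047), the peroxiredoxin it keeps reduced, had 630.0, 618 and 636 CPM after siARD1, against 512, 575 and 562 CPM after control siRNA, a log2 change of 0.19 with SE 0.0549 (edgeR adjusted p = 0.00773). Both groups stayed apart, but the PRDX1 call was lost with upper-quartile scaling (0.13, edgeR adjusted p = 0.0576). PRDX1 shares 379 exonic bases with MMACHC on the opposite strand, which held 1961 counts where PRDX1 held 70806.

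The same question was asked of the libraries labelled Hep-3B. There 1 of the 10 genes, KEAP1, fell and 0 rose, with a median log2 fold change of -0.0012 against -0.011 for all 15762 genes tested. Of all those genes 32.2% passed, 15.3% lower and 16.8% higher. Among the genes called, 52.3% were higher, or 44.9% with upper-quartile scaling. At an unadjusted p under 0.05, 0 were higher and 2 lower (KEAP1 and MAFG), and DESeq2 and limma-voom also called 0 higher and 1 lower. KEAP1 was the 1 gene of the 10 whose groups did not overlap, where 45.0% of all genes tested did not overlap.

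KEAP1 was scarce in the libraries labelled Hep-3B. It had 4.89, 5.17 and 5.51 CPM after siARD1, against 6.52, 7.31 and 8.44 CPM after control siRNA. Those values rest on 85, 119 and 143 counts after siARD1, against 150, 126 and 174 counts after control siRNA. The siARD1 libraries all lay lower, with a log2 change of -0.51 with SE 0.15 (edgeR adjusted p = 0.0167), or 70.2% of control. The call was lost without control 3 (-0.40, edgeR adjusted p = 0.0878) or siARD1 library 1 (-0.47, 0.0640). The KEAP1 to NFE2L2 ratio per kilobase was 0.0599 ± 0.0035 after siARD1 and 0.0875 ± 0.0102 after control siRNA (SD, n = 3 each). The groups did not overlap (exact two-sided permutation p = 0.1, the smallest that 3 against 3 libraries can give).

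The other regulators did not pass under the Hep-3B label. SQSTM1 had 456, 443 and 449.7 CPM after siARD1, against 425, 484 and 501 CPM after control siRNA. The siARD1 values lay inside the range of the controls (-0.064, 95% interval -0.20 to 0.071, edgeR adjusted p = 0.480). NFE2L2 had 139, 133 and 141 CPM after siARD1, against 135, 131 and 138 CPM after control siRNA. The groups were interleaved (0.03, 95% interval -0.10 to 0.16, edgeR adjusted p = 0.734). MAFG had 147, 153 and 161 CPM after siARD1, against 153, 182 and 178 CPM after control siRNA. Control 1 lay among the siARD1 libraries, and the change of -0.15 had an edgeR adjusted p of 0.105 (-0.23 and 0.00800 without that control). BACH1 had 58.1 to 67.2 CPM after siARD1 and 57.9 to 65.1 CPM after control siRNA, overlapping groups (0.059, edgeR adjusted p = 0.592).

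Nor did any of the 5 targets pass there. TXNRD1, the most abundant of the 10 per length there, had 3270.3, 3043 and 3269.7 CPM after siARD1, against 2659, 3119 and 3347 CPM after control siRNA. Control 1 was the lowest library of all 6 (0.071, 95% interval -0.083 to 0.22, edgeR adjusted p = 0.489). NQO1 had 483, 462 and 493 CPM after siARD1, against 492, 500.1 and 530.5 CPM after control siRNA, with -0.081 (95% interval -0.20 to 0.039, adjusted p = 0.296 in edgeR). Its groups overlapped at the edge. SRXN1 (0.094, 95% interval -0.12 to 0.31), TXN (0.085, -0.061 to 0.23) and PRDX1 (-0.033, -0.15 to 0.083) had edgeR adjusted p of 0.513, 0.375 and 0.685. All 3 had overlapping groups.

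**Figure D2:**
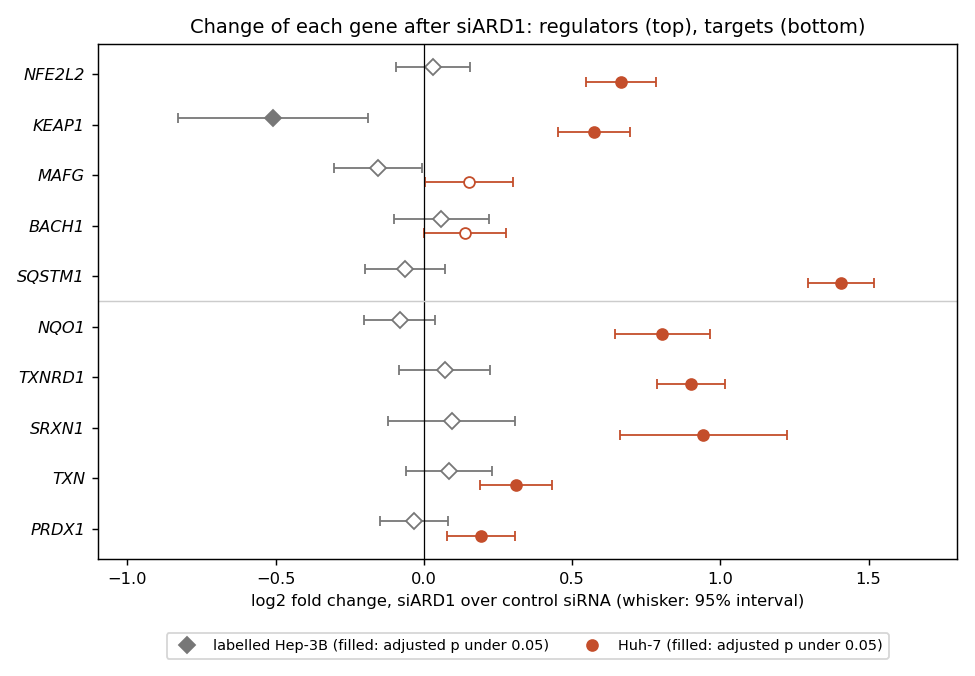
Log2 fold change of each gene, siARD1 over control siRNA, with its approximate 95% interval, as diamonds for the libraries labelled Hep-3B and circles for Huh-7. Symbols are filled where the edgeR adjusted p is under 0.05: 8 genes lie to the right of 0 in Huh-7 and 1, KEAP1, to the left under the Hep-3B label.

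Whether the lines differed was tested on the difference itself, as the change in Huh-7 minus the change under the Hep-3B label in one fit of 4 groups. Of the 10 genes, 7 had a more positive change in Huh-7 and 0 a more negative one, where 15.2% and 16.2% of all 17122 genes tested did (31.4% in either direction). At an unadjusted p under 0.05, 9 were more positive and 0 more negative, and DESeq2 and limma-voom called 8 and 0. The difference was largest for SQSTM1, at 1.45 (95% interval 1.28 to 1.63, edgeR adjusted p = 5.76e-13). KEAP1, which moved in opposite directions, followed at 1.06 (95% interval 0.78 to 1.34, edgeR adjusted p = 9.67e-07). NQO1 differed by 0.87 (95% interval 0.67 to 1.07, edgeR adjusted p = 1.03e-07) and NFE2L2 by 0.62 (95% interval 0.44 to 0.79, edgeR adjusted p = 2.45e-06). TXNRD1 and SRXN1 differed by 0.81 and 0.83, with edgeR adjusted p of 2.77e-07 and 0.000563. MAFG passed with a small difference, 0.29 (95% interval 0.082 to 0.49, edgeR adjusted p = 0.0288). It was lost when any one of 7 libraries was left out: control 2 or 3 or siARD1 library 1 under the Hep-3B label (edgeR adjusted p = 0.0619, 0.0710 and 0.0794), and control 2 or 3 or siARD1 library 1 or 2 in Huh-7 (0.0739, 0.102, 0.0609 and 0.0694). PRDX1 missed the threshold at 0.21 (95% interval 0.042 to 0.37, edgeR adjusted p = 0.0502), and passed with RLE or upper-quartile scaling, DESeq2, limma-voom and a replicate block (adjusted p from 0.01005 to 0.0478), and without controls 1 or 2 labelled Hep-3B or Huh-7 control 2 (0.0176, 0.0275 and 0.0389). TXN did not pass at 0.21 (95% interval 0.012 to 0.41, edgeR adjusted p = 0.100). It passed without control 2 labelled Hep-3B (0.29, edgeR adjusted p = 0.0240), and BACH1 did not pass at 0.064 (95% interval -0.15 to 0.28, edgeR adjusted p = 0.690). NAA10 itself fell further in Huh-7, by a difference of -1.995, and the part of that depth of knockdown in these differences was not tested.

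The controls alone differed between the lines in the levels of these genes, given here in CPM scaled over all 12 libraries. Line, passage and preparation cannot be told apart in this comparison, in which 80.7% of all 17122 genes differed, 40.0% higher and 40.7% lower under the Hep-3B label. All 10 genes passed, 8 higher and 2 lower. KEAP1 averaged 7.90 ± 1.03 CPM in the controls labelled Hep-3B and 76.4 ± 4.90 CPM in the Huh-7 controls (SD, n = 3 each; log2 difference -3.28, SE 0.0914, edgeR adjusted p = 1.89e-23). The Huh-7 level was 9.70 times that under the Hep-3B label. NFE2L2 was also lower, 143 ± 4.25 CPM in the controls labelled Hep-3B and 195 ± 5.32 CPM in the Huh-7 controls (SD, n = 3 each; log2 difference -0.44, SE 0.0602, edgeR adjusted p = 1.18e-07). The targets ran the other way. NQO1 averaged 539.8 ± 22.0 CPM in the controls labelled Hep-3B and 32.2 ± 2.36 CPM in the Huh-7 controls (SD, n = 3 each; log2 difference 4.07, SE 0.0749, edgeR adjusted p = 7.27e-28), a 16.7-fold higher level. TXNRD1 averaged 3236 ± 370.0 CPM in the controls labelled Hep-3B and 403 ± 17.6 CPM in the Huh-7 controls (SD, n = 3 each; log2 difference 3.01, SE 0.0735, edgeR adjusted p = 7.06e-25). MAFG was 4.12 times, SRXN1 3.44 times and SQSTM1 2.19 times as high under the Hep-3B label, with edgeR adjusted p from 7.30e-21 to 3.25e-13. TXN was 1.45 times as high (edgeR adjusted p = 4.12e-08). BACH1 (0.17, edgeR adjusted p = 0.0348) and PRDX1 (0.18, 0.00586) differed least, and both calls were lost with upper-quartile scaling (0.366 and 0.178). PRDX1 was also lost without Huh-7 control 1 (0.196). BACH1 was lost without control 3 or siARD1 library 2 or 3 under the Hep-3B label (0.178, 0.0653 and 0.0862), or without any Huh-7 control (0.1005, 0.268 and 0.109) or Huh-7 siARD1 library 1 or 2 (0.0648 and 0.0626).

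Levels of different genes were set side by side per kilobase of exon, as CPM divided by the summed length of annotated exons. In Huh-7 after siARD1 the order was PRDX1 (413), TXN (299), TXNRD1 (118), SQSTM1 (83.1), NFE2L2 (54.4), KEAP1 (31.9), NQO1 (18.2), MAFG (9.86), BACH1 (8.59) and SRXN1 (5.67), all in CPM per kilobase. No neighbours in that order overlapped between libraries. In the Huh-7 controls NFE2L2 (34.3) stood above SQSTM1 (31.3), and NQO1 (10.4) overlapped with MAFG (8.90). In plain CPM the Huh-7 controls had SQSTM1 (240) above NFE2L2 (205). The order thus depends on the exon lengths used, 7654 bases for SQSTM1 and 5979 for NFE2L2. Which annotated exons the cells use was not tested. Under the Hep-3B label TXNRD1 led in both groups, with 476 CPM per kilobase after siARD1 and 453 after control siRNA. KEAP1 came last in both, with 1.38 and 1.97. SRXN1 and BACH1 overlapped in both groups there, and PRDX1 and TXN after siARD1. Within a group of 3 libraries the CV of a gene's CPM ran from 1.43% (PRDX1 in Huh-7 after siARD1) to 16.7% (SRXN1 in the Huh-7 controls), with a median of 6.05%.

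**Figure D3:**
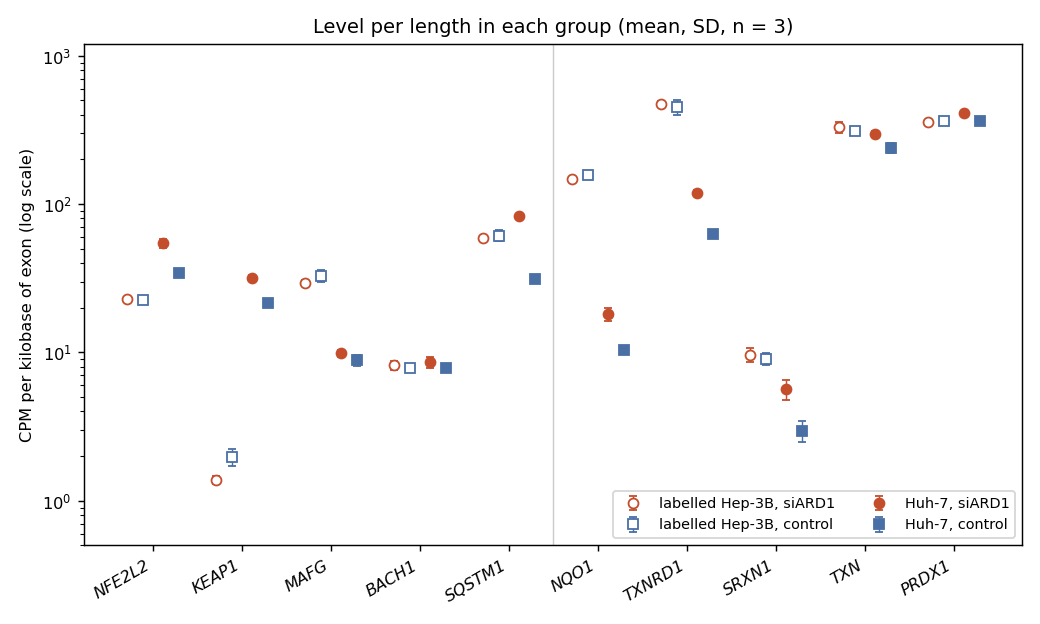
Mean level of each gene in CPM per kilobase of exon on a log axis, with the SD over 3 libraries, open symbols for the Hep-3B label and filled symbols for Huh-7, circles for siARD1 and squares for control siRNA. NQO1 lies near 147 and 156 under the Hep-3B label and at 18.2 and 10.4 in Huh-7, and KEAP1 shows the reverse order of lines.

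The promoters of these genes, most of which rose together in Huh-7, were searched for the core of the antioxidant response element, TGACNNNGC, on both strands, and for TGANTCA, the site shared by AP-1 and related factors. The windows are RefSeq's, on GRCh38.p14, from 250 bases before to 50 after an annotated start, and 9 of the 10 genes matched with 16 windows in all (PRDX1 did not). The antioxidant core was found in windows of 2 of the 9 genes (22.2%), TXNRD1 and KEAP1, against 16.1% of all 27305 genes with a window. Counted by window, it was in 3 of 16 against 13.3% of all 35116 windows. With so few genes and windows, these shares do not set the 9 genes apart from all genes. The TGANTCA word was found for 1 of 9, BACH1, against 9.37% of all. The windows that hold a match are shown so that a reader can see the word in place, read 5′ to 3′ along the gene, with each match in capitals and positions counted from the start as 1. They are TXNRD1 window 1 (chr12:104215529-104215828, plus strand), TXNRD1 window 2 (chr12:104286782-104287081, plus strand), KEAP1 (chr19:10502722-10503021, minus strand) and BACH1 (chr21:29298672-29298971, plus strand).
TXNRD1 window 1: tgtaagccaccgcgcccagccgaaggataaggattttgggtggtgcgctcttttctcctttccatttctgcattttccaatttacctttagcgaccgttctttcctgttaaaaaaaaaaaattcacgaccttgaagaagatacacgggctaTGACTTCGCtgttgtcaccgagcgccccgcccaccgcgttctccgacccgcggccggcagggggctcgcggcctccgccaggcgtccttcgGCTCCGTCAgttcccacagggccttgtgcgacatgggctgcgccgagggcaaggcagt
TXNRD1 window 2: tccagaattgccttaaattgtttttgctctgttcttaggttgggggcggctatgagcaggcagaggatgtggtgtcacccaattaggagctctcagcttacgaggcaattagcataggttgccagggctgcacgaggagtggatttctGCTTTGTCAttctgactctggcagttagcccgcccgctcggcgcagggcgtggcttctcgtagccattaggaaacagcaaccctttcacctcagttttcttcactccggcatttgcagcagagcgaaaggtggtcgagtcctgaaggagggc
KEAP1: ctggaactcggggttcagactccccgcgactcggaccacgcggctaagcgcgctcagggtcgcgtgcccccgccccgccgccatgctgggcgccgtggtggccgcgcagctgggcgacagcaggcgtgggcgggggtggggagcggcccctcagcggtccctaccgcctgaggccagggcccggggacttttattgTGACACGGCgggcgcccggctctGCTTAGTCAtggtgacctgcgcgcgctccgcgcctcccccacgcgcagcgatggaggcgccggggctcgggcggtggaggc
BACH1: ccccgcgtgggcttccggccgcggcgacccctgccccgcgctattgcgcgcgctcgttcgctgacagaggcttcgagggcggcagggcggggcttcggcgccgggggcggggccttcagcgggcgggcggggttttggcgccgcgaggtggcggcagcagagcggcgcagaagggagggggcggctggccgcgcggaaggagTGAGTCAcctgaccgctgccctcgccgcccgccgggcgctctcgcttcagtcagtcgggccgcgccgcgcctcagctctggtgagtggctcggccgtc
In TXNRD1, which rose in Huh-7, window 1 holds TGACTTCGC at -99 to -91 on the gene's own strand and TGACGGAGC from -8 on the other strand. Window 2, at a second start, holds TGACAAAGC at -102 to -94 on the other strand. In KEAP1 the words are TGACACGGC at -54 to -46 and, on the other strand, TGACTAAGC at -31 to -23. BACH1, which passed in neither line, holds TGAGTCA at -48 to -42. Of 30 genes with a window in the list of other NRF2 targets described next, 12 (40.0%) held the antioxidant core. A match is a word in a window and not a shown binding site, and elements farther from a start lie outside these windows.

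The rest of the pathway was described through 4 lists chosen by role, also with earlier results of these data known. Their counts beside the shares of all genes are descriptions too. Of 39 other NRF2 targets, 20 of the 38 tested rose in Huh-7 and 1 fell, with a median log2 fold change of 0.30 (all genes -0.0076; 21.2% of all genes rose and 18.9% fell). The smallest p-values belonged to the aldo-keto reductase AKR1C2 (2.31, 476 CPM after siARD1 against 95.8 CPM after control siRNA, edgeR adjusted p = 9.10e-18), the prostaglandin reductase PTGR1 (1.11), AKR1C1 (1.43) and AKR1B10 (6.67). AKR1B10 rests on 9 counts over the 3 controls and 887 after siARD1, so its fold is uncertain. Reads of the close relatives AKR1C1 and AKR1C2 may be shared between them. The 1 that fell was GCLC, the catalytic subunit of glutathione synthesis (-0.54, edgeR adjusted p = 2.92e-06), named for its direction after its value was seen. GCLC fell under the Hep-3B label too (-0.39, edgeR adjusted p = 0.0222). The count of 1 that fell in Huh-7 was 3 without siARD1 library 3 and 4 with upper-quartile scaling.

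Under the Hep-3B label more genes of the same list were lower than higher. Of 39 tested, 20 fell and 6 rose, with a median of -0.17 (all genes -0.011; 15.3% fell and 16.8% rose). The smallest p-values among the called members were those of the peroxidase GPX2 (-0.97, 80.5 CPM after siARD1 against 157 CPM after control siRNA, edgeR adjusted p = 3.33e-07), the glutathione transferase GSTA1 (-0.93), UGDH, which makes UDP-glucuronate (-0.56), and the pentose phosphate enzyme TKT (-0.51). The core targets NQO1, TXNRD1 and SRXN1 did not pass there while 20 of the wider list fell. By the test of the difference, 21 of the 39 were more positive in Huh-7 and 3 more negative (15.2% and 16.2% of all genes). UGDH differed by 1.44, AKR1C2 by 2.56 and GPX2 by 1.07. In the controls 35 of 39 were higher under the Hep-3B label and 3 lower (40.0% and 40.7% of all genes).

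**Figure D4:**
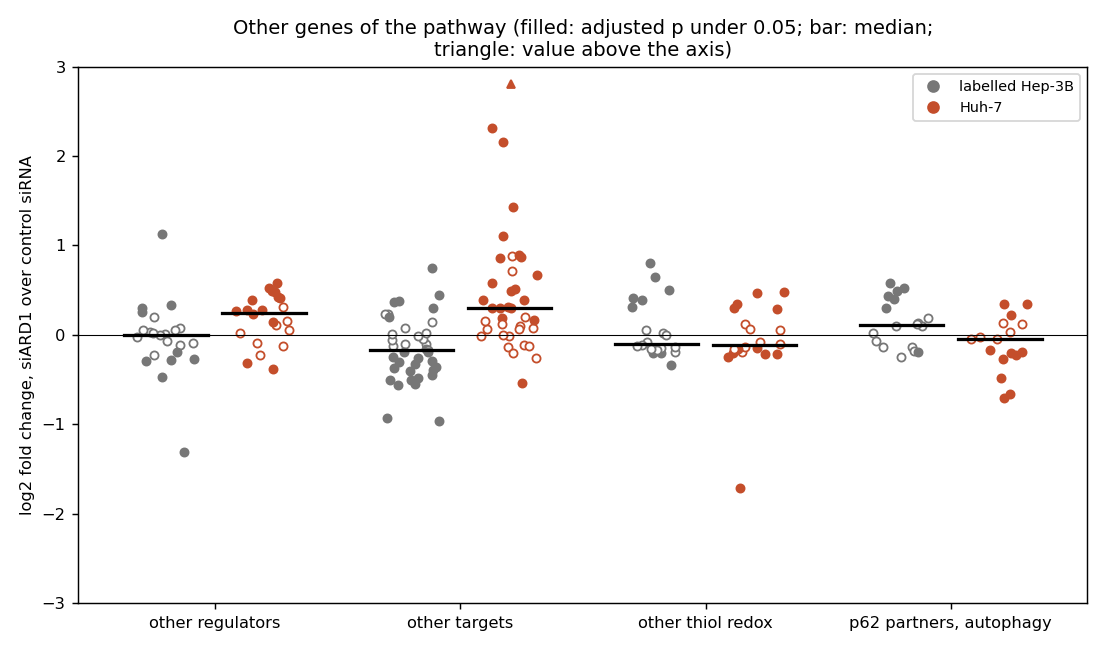
Log2 fold change, siARD1 over control siRNA, of every tested gene in 4 lists of other pathway genes, grey for the Hep-3B label and red for Huh-7, filled where the edgeR adjusted p is under 0.05, with the median as a bar. The other NRF2 targets have a median of -0.17 under the Hep-3B label and 0.30 in Huh-7, and the triangle marks AKR1B10 at 6.67.

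Among 23 other regulators and partners of NRF2, 12 of 22 tested rose and 2 fell in Huh-7 (median 0.25), where 21.2% of all genes rose and 18.9% fell. They included CREBBP, the gene of an acetyltransferase coactivator (0.58, edgeR adjusted p = 4.34e-08), DPP3, a peptidase that binds KEAP1 (0.49), the small MAF gene MAFF (0.52) and PGAM5, a mitochondrial phosphatase bound by KEAP1 (0.43). Under the Hep-3B label 4 of 23 rose and 6 fell (median -0.00072), where 16.8% of all genes rose, a share near that of the list, and 15.3% fell. NFE2, a blood-lineage relative of NRF2, fell (-1.31, 2.66 CPM after siARD1 against 6.59 CPM after control siRNA). The repressor gene BACH2 rose (1.12), DCAF11, a substrate receptor for NRF2, fell (-0.47) and NFE2L1, which controls proteasome genes, rose (0.30). BACH2, DCAF11 and NFE2L1 passed in the same direction in Huh-7 (0.41, -0.32 and 0.23, edgeR adjusted p = 0.00409, 0.000756 and 0.00101). MAFF also rose under the Hep-3B label (0.33, edgeR adjusted p = 0.0329). The counts of 4 and 6 under the Hep-3B label were unsteady. There, 2 rose without control 1 or any 1 siARD1 library, and 3 fell without control 3 or siARD1 library 2 or 3.

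Other genes of thiol reduction were mixed. In Huh-7 5 of 20 rose and 7 fell (median -0.12), where 21.2% of all genes rose, a share near that of the list, and 18.9% fell. TXNIP, the inhibitor of thioredoxin and a glucose-responsive gene, fell most (-1.71, 78.1 CPM after siARD1 against 255 CPM after control siRNA, edgeR adjusted p = 1.46e-15), while it rose under the Hep-3B label (0.39), a difference of -2.12. The glutaredoxin GLRX3 rose in both lines (0.48 in Huh-7 and 0.50 under the Hep-3B label), as did TXNL1 (0.30 and 0.64). The methionine sulfoxide reductase MSRB1 fell in Huh-7 (-0.22). PRDX6 rose under the Hep-3B label (0.41), where 6 of 20 rose and 3 fell (median -0.10; of all genes, 16.8% rose and 15.3% fell, the last near the share of the list). The 7 that fell in Huh-7 became 11 with upper-quartile scaling, 3 without control 2 or siARD1 library 2 and 2 without control 3, the 5 that rose became 3 without control 1, and the 3 under the Hep-3B label became 1 without siARD1 library 1.

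Partners of p62 and other autophagy genes were mixed, too. In Huh-7 3 of 17 tested rose and 8 fell (median -0.052), where 21.2% of all genes rose, a share near that of the list, and 18.9% fell. NBR1, the autophagy receptor nearest to p62, fell (-0.48, 126 CPM after siARD1 against 176 CPM after control siRNA, edgeR adjusted p = 9.07e-07), as did TFEB, an activator of lysosome genes (-0.71). The LC3 gene MAP1LC3B (0.35) and WDFY3, a scaffold that binds p62 (0.34), rose. Under the Hep-3B label 6 of 18 rose and 1 fell (median 0.11), where 16.8% of all genes rose and 15.3% fell. The receptor gene TAX1BP1 (0.52), the p62-binding kinase gene PRKCI (0.58), RB1CC1, which starts autophagosomes (0.40), and MAP1LC3B (0.49) were among those that rose. In Huh-7, PRKCI and RB1CC1 were among those that fell (-0.195 and -0.199, edgeR adjusted p = 0.0146 and 0.0256). The 8 in Huh-7 became 5 without control 1 or 3. The 1 that fell under the Hep-3B label, TFE3, became 0 without control 2 or 3 or siARD1 library 1 or 3, and 2 without control 1.

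Likeness of pattern was measured as Pearson's r of log2 CPM over the 12 libraries, among 10995 other genes that averaged 5 CPM or more. The libraries form 4 groups of 3, so r mostly compares 4 group levels and is given as a description. SQSTM1 was most like the calcium pump gene ATP2A2 (r = 0.978), followed by UAP1L1 (0.976), ZZEF1 (0.975), an unnamed gene and CREBBP (0.965). NFE2L2 was most like DUSP1 (0.988), UTP15, MYCBP2, BBOX1-AS1 and AEN (all at least 0.984). Genes most like TXNRD1 included SERPINE2 (0.999), ANXA1, KLF4 and LUCAT1 (each 0.998).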

How the data were processed

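Total RNA depleted of rRNA was made into directional libraries, per the labels' protocols. Per the submitters' processing notes, cutadapt 4.6, STAR 2.7.11b and GRCh38 were used. The authors deposited raw counts per gene, 1 table per line. The sources used here name neither the counting tool nor the annotation release or strand setting. All value columns were mapped to a sample (0 left over).

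Each line was fitted alone with edgeR 4.0.16 in R 4.3.3: filterByExpr (minimum count 10, minimum total 15), TMM scaling and a robust quasi-likelihood F-test of siARD1 over control, with Benjamini-Hochberg adjustment over all genes tested and a threshold of 0.05. The lines were compared with contrasts in 1 fit of all 12 libraries. The SE was derived from the log2 fold change and F, and 95% intervals use it with the fit's degrees of freedom, so both are approximate. An exact permutation test of 3 against 3 libraries cannot go under 0.1. Alternatives used DESeq2 1.42.0 and limma 3.58.1.

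The 10 genes and the 4 lists were chosen with earlier results of these data known. From each list, up to 4 called genes per line with the smallest p are named, and other names are said to be so or serve as context. Symbols came from a gene name table, and positions and exon lengths from GENCODE v29 on GRCh38. Alternatives were another threshold, filter, scaling or tool, 1 fit for both lines, a replicate block and leaving out each library. One of the genes most like TXNRD1 is not reported here. Figures were drawn with matplotlib 3.10.9.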

Additional observations from a re-analysis of the deposited data

Results flagged for a closer look

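The siARD1 change differed between the lines for 7 of the 10 genes in the test of the difference itself (Huh-7 minus the Hep-3B label, log2, edgeR): SQSTM1 1.45, KEAP1 1.06, NQO1 0.87, SRXN1 0.83, TXNRD1 0.81, NFE2L2 0.62 and MAFG 0.29. The targeted gene NAA10 differed as well, by -1.995.

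Genes of the lists named above that passed the same test with a more positive change in Huh-7 were AKR1B10 7.21, AKR1C2 2.56, AKR1C1 1.52, UGDH 1.44, PTGR1 1.29, GPX2 1.07, GSTA1 0.77, DPP3 0.76, TKT 0.59, CREBBP 0.54, PGAM5 0.50 and WDFY3 0.30. Those with a more negative change in Huh-7 were TXNIP -2.12, PRKCI -0.79, BACH2 -0.73, RB1CC1 -0.62, TAX1BP1 -0.41, NBR1 -0.36, TXNL1 -0.36 and PRDX6 -0.36. Of these, BACH2 and TXNL1 were called higher in both lines, with the smaller rise in Huh-7. TXNIP, PRKCI and RB1CC1 were called higher under the Hep-3B label and lower in Huh-7. AKR1B10, AKR1C2, UGDH, PTGR1 and DPP3 were called lower under the Hep-3B label and higher in Huh-7. The WDFY3 call was lost without control 3 or siARD1 library 1 or 3 under the Hep-3B label (0.23, 0.29 and 0.29) or without control 2 or siARD1 library 1 in Huh-7 (0.26 and 0.24). The TXNL1 call was lost without control 2 or 3 under the Hep-3B label (-0.28 and -0.29) or Huh-7 control 3 (-0.32).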

How the results depend on the processing

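In Huh-7, 7 to 10 of the 10 genes were higher and 0 lower under every alternative run. Under the Hep-3B label, a threshold of 0.01 left 3073 genes called in all and 0 of the 10 lower, against 5070 and 1 at 0.05. With 1 library left out, 0 to 2 of the 10 were lower there. The log2 fold change of NFE2L2 there was -0.0041 with upper-quartile factors, and that of TXNRD1 ran from -0.014 to 0.15 with 1 library left out. Differences between the lines that crossed 0 with 1 library left out were those of NFE2L1 (-0.17 to 0.047), GLRX3 (-0.11 to 0.023) and NFE2 (-0.53 to 0.60), none of them called, and the cause was not tested. Deviations of same-numbered libraries from their group means were weakly correlated at most (r from -0.0646 to 0.0652). Under the Hep-3B label r was 0.0344, 0.0652 and 0.0643 for equal numbers, and -0.0548 to -0.0103 for different numbers. In Huh-7 r was 0.0520, -0.0646 and 0.00746 for equal numbers, and -0.103 to 0.108 for different numbers. Whether numbers paired the libraries under the Hep-3B label is not settled by these values. A replicate block gave 5597 genes called under the Hep-3B label and 6328 in Huh-7, with 1 and 8 of the 10 among them. At a threshold of 0.01 the Hep-3B label had 1 other regulator higher and 2 lower. Among the 10 genes, KEAP1 under the Hep-3B label had the fewest counts in a library, 85.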
